A study of Mus musculus with 30 samples.

Results

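The lysosomal hydrolases, the lysosomal membrane proteins and the subunits of the vacuolar proton pump were measured in cultured microglia, the macrophages that reside in the mouse brain. The genes were taken by name and not by their values: 20 rows of the deposited table have a symbol beginning with Atp6v or Atp6ap, the names of vacuolar H+-ATPase (V-ATPase) genes, and 36 further rows carry a listed lysosomal symbol. All 36 listed symbols had a row, so the set held 56 of the 13788 genes in the table. By role it held 12 genes grouped as glycosidases (the amidase Aga among them), 5 sulfatases and 6 genes of lipid breakdown and cholesterol transport. It also held 4 genes grouped as proteases, thioesterase and progranulin, 8 membrane proteins or channels, and the transcription factor Tfeb. The V-ATPase genes were 8 subunits of the membrane sector V0, 9 subunits of the soluble sector V1, 2 accessory proteins and 1 pseudogene, Atp6v0c-ps2, whose symbol matches the name rule.

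The lysosome is the acidic compartment in which cells digest what they have engulfed, and in microglia it receives phagocytosed debris, synaptic material and amyloid. Soluble hydrolases cut sugars, sulfate esters, lipids and proteins from the cargo, membrane glycoproteins line and protect the compartment, and the V-ATPase pumps protons into it, with V1 hydrolysing ATP and V0 carrying the protons across the membrane. The transcription factor TFEB drives many of these genes together through a short promoter element called CLEAR, whose core is the E-box letters CACGTG.

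RNA was sequenced from primary microglia, which were shaken off cultures of mouse brain, from wild-type (WT) mice and from mice labelled PD-1 KO. PD-1, encoded by Pdcd1, is an inhibitory immune receptor. The 30 libraries form 10 groups of 3: WT and PD-1 KO at 0 h, at 2 h and at 8 h without treatment, and both genotypes at 2 h and 8 h with conditioned medium that contained amyloid-beta. The series title concerns PD-1 and the uptake of material by microglia in a mouse model of amyloid plaques. The labels give no strain or age, do not say which medium the untreated cultures received, and leave unstated whether the 3 libraries of a group came from different animals, and a p-value here therefore reflects only how far these libraries scattered.

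Each value is a read count that was divided by a size factor of its library and floored at 1. The depth behind the values was 4227019 to 48509985 reads (median 9603082), and no member lay at the floor in any library. Pdcd1 had the floor value 1 in each of the 15 WT libraries and 6.02 to 25.3 in each of the 15 PD-1 KO libraries, which goes against the label, so every direction below is that of the libraries labelled PD-1 KO. Markers of other brain cells were also higher there: all 9 measured astrocyte markers, led by Gfap and Gja1, with a summed value of 11126 to 27818 against 1219 to 3755 in WT, and all 6 ependymal markers (1329 to 6101 against 72.8 to 444). Of 10 listed astrocyte markers Gjb6 has no row in the table, and none of 9 blood cell markers has one. Of the oligodendrocyte lineage markers 7 of 11 were higher and 3 lower, and their sum was 6541 to 10829 against 2494 to 5688 in WT. Of the neuronal markers 5 of 9 were higher and 4 lower (sum 1103 to 1838 against 552 to 976), and of the fibroblast and vascular markers 5 of 8 were higher and 1 lower (168 to 747 against 61.3 to 308). All 14 microglia and macrophage markers were present, 4 higher and 7 lower. For single markers, higher and lower here mean an adjusted p under 0.05 over the 5 conditions, in the test given below. Of all 13722 genes tested 30.3% were higher and 29.1% lower by the same rule. The summed value of 14 microglia and macrophage markers was 52192 to 94898 in PD-1 KO and 58987 to 122133 in WT over all libraries, and within single conditions it was lower without overlap in 3 of 5. Fewer microglia in a culture and less RNA of a gene per microglial cell cannot be told apart in such bulk libraries.

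Libraries labelled PD-1 KO held less RNA of most of these genes. Averaged over the 5 conditions, 47 of the 56 genes (83.9%) were lower in libraries labelled PD-1 KO, against a background of 29.1% of all 13722 genes tested, and 5 genes (Atp6v0e2, Arsb, Atp6v0a2, Ids and Smpd1) were higher, against a background of 30.3%. Called in either direction were 52 genes, against a background of 59.5%. Arsa, Laptm4a, Scarb2 and Atp6v1g2 did not pass the threshold, an adjusted p of 0.05 in limma's moderated test on log2(value + 1). Differences are given below as log2 of PD-1 KO label over WT ± SE. The median log2 difference of the 56 genes was -0.37, beside -0.02 over all genes tested. Together the 36 listed genes held 2.47% to 2.84% of all values in a library labelled PD-1 KO and 3.43% to 3.79% in a WT library, and the 19 V-ATPase genes held 0.525% to 0.584% against 0.598% to 0.679%. Neither pair of ranges overlapped.

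The size of the shift depended on how libraries were put on a common scale. Quantile normalization, which forces all libraries to 1 distribution, moved the median of all genes to -0.11 and that of the 56 genes to -0.23. It left 44 genes lower and 7 higher, against 45.7% of all genes tested called lower and 23.7% called higher. The share of called genes that were higher went from 51% to 34.2% over all genes. Atp6ap1, Lamp2, Laptm5, Lipa and Atp6v0c-ps2 lost their calls under that scaling. The other 47 calls over all conditions held under it and under every other alternative, and all 52 held when any 1 library was left out. For 24 of the 52 called genes, all of them lower, the difference under quantile normalization was smaller by over 1.5 times, among them Hexa (-0.47), Grn (-0.29), Cd68 (-0.36), Cd63 (-0.29), Npc2 (-0.29), Lgmn (-0.20) and Atp6v1b2 (-0.11).

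**Figure D1:**
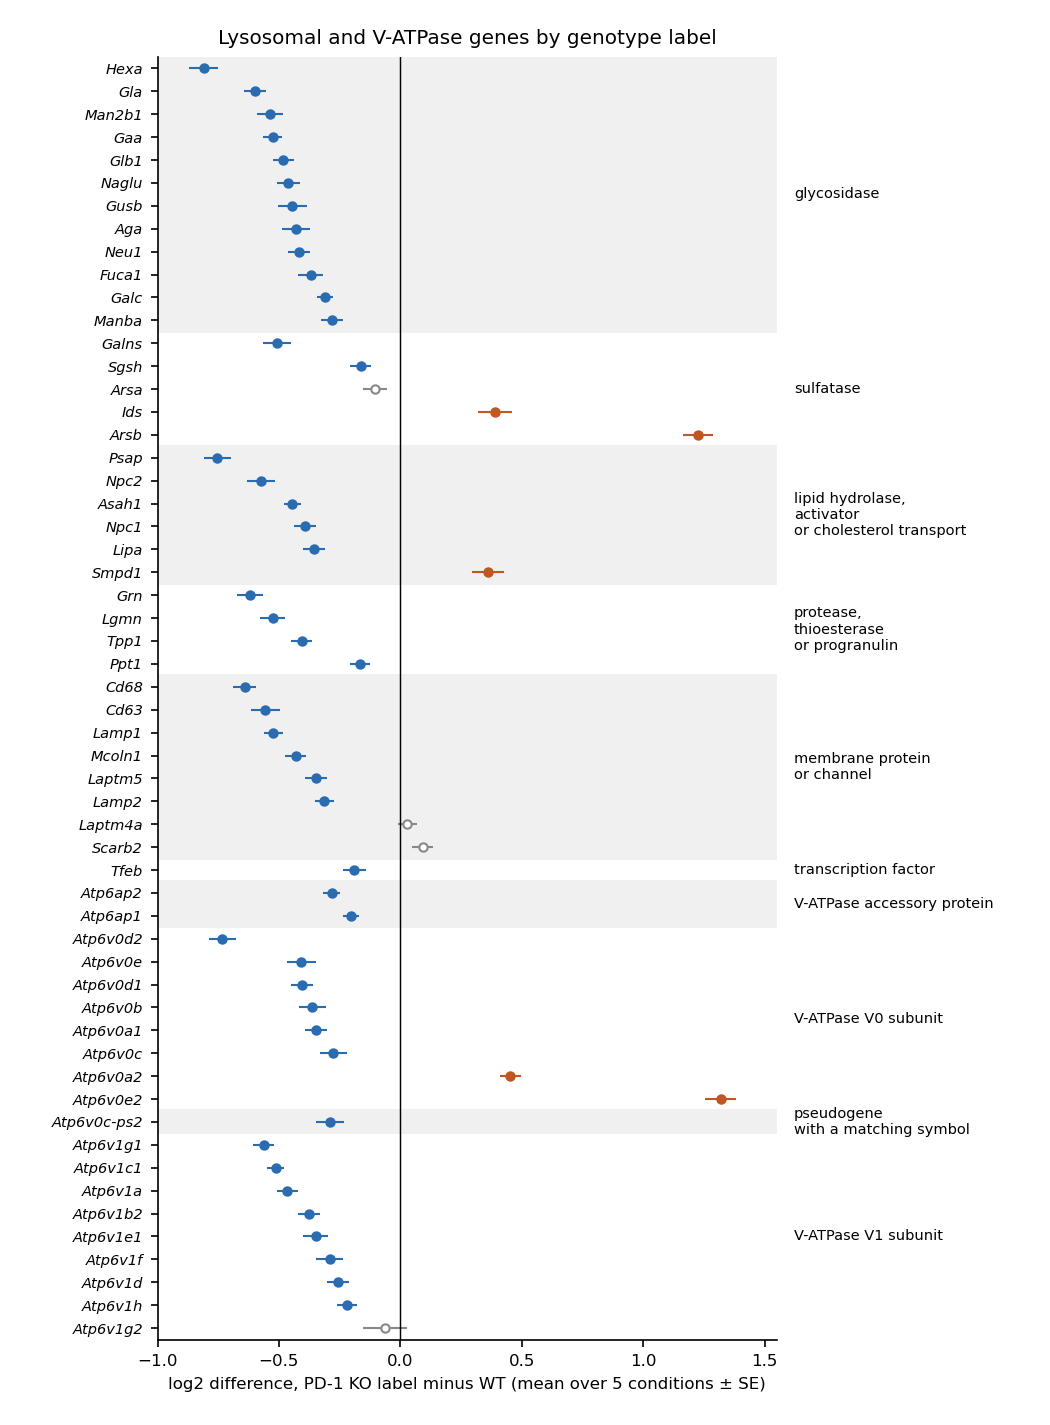
Log2 difference between libraries labelled PD-1 KO and WT, averaged over 5 conditions, for the 56 genes grouped by role; points are estimates from 15 against 15 libraries and bars are ± SE. Filled blue points passed the threshold as lower and filled orange points as higher, open points did not pass. All 12 genes grouped as glycosidases lie below 0, from -0.81 (Hexa) to -0.28 (Manba), and Arsb (1.23) and Atp6v0e2 (1.32) lie farthest to the right.

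The E-box letters of the CLEAR element were searched in the promoters of these genes. TFEB drives many lysosomal genes through this element, so its share here does not bear on the difference between the labels. RefSeq promoters (GRCm38.p6), running from 250 bases before to 50 bases after each annotated start, were at hand for 45 of the 56 genes. Aga, Asah1, Atp6v0a2, Atp6v0c-ps2, Atp6v0d2, Atp6v1b2, Atp6v1c1, Atp6v1g1, Atp6v1h, Galns and Npc1 were not matched. On either strand, the 7 letters TCACGTG occurred in the promoters of 13 of the 45 genes (28.9%), beside 6.73% of the 10463 genes of the deposited table that had a promoter. The 6 letters CACGTG, which lie within them, occurred in the same 13 genes, beside 11.4% of table genes. The palindrome TCACGTGA occurred in 5 of 45 (11.1%, beside 2.08%). The same palindrome with a G before it and a C after it was also searched. That extended form occurred in 0 of the 45 genes, beside 0.784% of table genes. At so low a share, its absence among 45 genes does not show a difference. Counted over promoters of that length, TCACGTG was in 13 of the 52 promoters of these genes and in 752 of the 13406 promoters of table genes (5.61%). By the GENCODE annotation, which gave the gene positions in this text, the stretches shown for Mcoln1, Naglu, Atp6v1a and Atp6v0b reach into the gene. The stretches that carry the letters are shown for 6 genes from 4 roles, each 5′ to 3′ on the gene's own strand. They lie entirely before the RefSeq start, with TCACGTG, TCACGTGA or their reverse complements in capitals.
Lamp1 (chr8:13159079-13159160, plus strand): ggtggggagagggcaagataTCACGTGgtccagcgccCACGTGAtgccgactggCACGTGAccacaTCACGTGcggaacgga
Mcoln1 (chr8:3500427-3500500, plus strand): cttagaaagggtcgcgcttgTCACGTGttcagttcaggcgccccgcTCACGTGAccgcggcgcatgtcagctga
Gla (chrX:134601173-134601253, minus strand): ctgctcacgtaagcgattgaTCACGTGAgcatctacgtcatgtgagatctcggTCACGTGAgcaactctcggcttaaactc
Naglu (chr11:101070000-101070046, plus strand): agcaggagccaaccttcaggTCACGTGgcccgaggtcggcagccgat
Atp6v1a (chr16:44139364-44139411, minus strand): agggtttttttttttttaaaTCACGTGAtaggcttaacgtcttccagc
Atp6v0b (chr4:117887330-117887386, minus strand): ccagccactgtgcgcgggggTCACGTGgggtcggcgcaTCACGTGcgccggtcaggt
Lamp1 held 4 such E-boxes within 82 bases, the last of them ending 10 bases before the start, and Mcoln1, Gla and Atp6v0b held 2 each. Of the 13 genes with TCACGTG, 12 were lower in libraries labelled PD-1 KO and Arsa did not pass, with a median log2 difference of -0.46. Among the 32 genes whose promoter lacked it, 25 were lower and 4 higher, with a median of -0.31. Of the 11 genes without a promoter at hand 10 were lower and 1 higher, with a median of -0.43. Over all genes tested 29.1% were lower and 30.3% higher. Each of these groups of genes was mostly lower, and no test was made of the differences between them. A match is a stretch of letters and no evidence that a factor binds there.

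Glycosidases strip sugars from glycoproteins, glycolipids and glycosaminoglycans. The genes grouped with them were lower under the PD-1 KO label without exception, as 12 of 12 passed, with a median log2 difference of -0.45. Hexa, the alpha subunit of beta-hexosaminidase (chromosome 9, 59539540 to 59565109, GRCm38), ranged from 18792 to 31662 with a median of 22670 in WT libraries and from 10932 to 16746 with a median of 13225 in libraries labelled PD-1 KO. Every PD-1 KO library lay below every WT library. The log2 difference was -0.81 ± 0.06 (SE, adjusted p = 1.14e-12), the largest decrease among the 56 genes, and it was -0.71 at 0 h, -0.97 at 2 h, -1.10 at 2 h with amyloid-beta, -0.58 at 8 h and -0.70 at 8 h with amyloid-beta. Gla, alpha-galactosidase A, lay at 1553 to 2174 with a median of 1836 in PD-1 KO libraries and at 2345 to 3245 with a median of 2820 in WT libraries, again without overlap (-0.60 ± 0.05, adjusted p = 3.5e-12). Gaa, acid alpha-glucosidase, which breaks down lysosomal glycogen, showed the same separation, at 1128 to 1391 with a median of 1288 against 1486 to 2030 with a median of 1817 in WT (-0.53 ± 0.04, adjusted p = 2.62e-12). Man2b1, lysosomal alpha-mannosidase, overlapped between the labels, at 4046 to 7631 with a median of 5212 against 6396 to 8827 with a median of 7655 in WT (-0.54 ± 0.05, adjusted p = 1.06e-09).

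Among the other genes of this group the ranges of the labels overlapped. Glb1, beta-galactosidase, differed by -0.48 ± 0.04, Naglu, which acts on heparan sulfate, by -0.46 ± 0.05, Gusb, beta-glucuronidase, by -0.45 ± 0.06, and Aga, which cleaves the sugar from asparagine, by -0.43 ± 0.06. Neu1, sialidase 1, differed by -0.42 ± 0.05, Fuca1, alpha-fucosidase, by -0.37 ± 0.05, Galc, galactosylceramidase of myelin lipid breakdown, by -0.31 ± 0.03, and Manba, beta-mannosidase, by -0.28 ± 0.05. All 8 passed the threshold over the 5 conditions. Galc had the narrowest spread of the glycosidases, with a median coefficient of variation within groups of 3.91%.

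The sulfatases, which remove sulfate groups, went in both directions. Arsb, arylsulfatase B, which acts on dermatan and chondroitin sulfate (chromosome 13, 93771630 to 93943016, GRCm38), ranged from 2996 to 5504 with a median of 3571 in libraries labelled PD-1 KO and from 1381 to 1849 with a median of 1587 in WT libraries, so the lowest PD-1 KO library stood above the highest WT library. Its log2 difference was 1.23 ± 0.06 (adjusted p = 9.75e-16), and it was 1.39 at 0 h, 1.25 at 2 h, 0.96 at 2 h with amyloid-beta, 1.38 at 8 h and 1.15 at 8 h with amyloid-beta. Ids, iduronate 2-sulfatase, was higher by 0.39 ± 0.07 with overlapping ranges (1066 to 1589 with a median of 1355 in PD-1 KO, 738 to 1301 with a median of 1037 in WT). Its calls at 2 h without and with amyloid-beta and at 8 h with amyloid-beta were each lost without 1 of several libraries, for example at 0.31 without WT 2 h replicate 2. Galns, which acts on keratan sulfate, was lower, at 835 to 1542 with a median of 1046 against 1299 to 1801 with a median of 1498 in WT (-0.51 ± 0.06, adjusted p = 1.46e-08). Sgsh, heparan N-sulfatase, was lower with a smaller difference, at 623 to 963 with a median of 811 against 726 to 1074 with a median of 925 in WT (-0.16 ± 0.04, adjusted p = 0.00153). Both overlapped between the labels. Arsa, arylsulfatase A, differed by -0.10 ± 0.05 and did not pass (adjusted p = 0.0646). Within each library the value of Arsb was 3.25 to 4.002 times that of Galns under the PD-1 KO label and 0.824 to 1.23 times in WT, a ratio that does not depend on a single size factor per library.

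Of the 6 genes of lipid breakdown and cholesterol transport, 5 were lower and Smpd1 was higher. Psap, prosaposin, the precursor of the saposins that present lipids to their hydrolases (chromosome 10, 60277627 to 60302597, GRCm38), was the most abundant of the 56 genes per kilobase of exon, at a median value of 28996 per kilobase over the 30 libraries. It ranged from 88906 to 114266 with a median of 102301 in WT and from 57066 to 70224 with a median of 60289 in PD-1 KO libraries. The ranges did not overlap, and the log2 difference of -0.75 ± 0.05 (adjusted p = 1.19e-12) was -0.87 at 0 h, -0.63 at 2 h, -0.62 at 2 h with amyloid-beta, -0.82 at 8 h and -0.83 at 8 h with amyloid-beta. Under quantile normalization it was -0.33 over all conditions, and the calls at 2 h (-0.19) and 2 h with amyloid-beta (-0.23) were lost. Npc2, the soluble protein that hands cholesterol on inside the lysosome, differed by -0.57 ± 0.06, and its ranges overlapped (7408 to 11309 with a median of 8565 in PD-1 KO, 10396 to 18223 with a median of 12487 in WT). Asah1, acid ceramidase, was lower without overlap, at 3846 to 4980 with a median of 4268 against 5320 to 6600 with a median of 5874 in WT (-0.45 ± 0.04, adjusted p = 8.61e-12).

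Npc1, the membrane protein that takes cholesterol from Npc2, lay at 4453 to 6264 with a median of 5173 against 4903 to 8636 with a median of 6603 in WT, with overlap (-0.39 ± 0.04, adjusted p = 1.07e-08). It was lower at 0 h (-0.51), at 8 h (-0.54) and at 8 h with amyloid-beta (-0.52), and its values at 2 h (-0.19) and 2 h with amyloid-beta (-0.22) did not pass. Lipa, lysosomal acid lipase, differed by -0.35 ± 0.05 (-0.03 under quantile normalization, not passing, and 0.20 at 2 h with amyloid-beta, a reversed direction). Smpd1, acid sphingomyelinase, was higher by 0.36 ± 0.07 (adjusted p = 2.76e-05), at 418 to 755 with a median of 564 in PD-1 KO against 335 to 603 with a median of 427 in WT libraries, which overlapped. In single conditions Smpd1 passed at 8 h (0.42) and 8 h with amyloid-beta (0.44) only, and both calls were lost without some library, at 0.36 without WT 8 h replicate 3 and at 0.33 without PD-1 KO 8 h amyloid-beta replicate 2.

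All 4 genes of the group that holds the proteases, the thioesterase and progranulin were lower, with a median of -0.47. Grn, progranulin, a secreted and lysosomal protein whose loss causes lysosomal storage disease in the brain (chromosome 11, 102430315 to 102437048, GRCm38), ranged from 17553 to 24701 with a median of 21222 in WT and from 10901 to 17424 with a median of 14007 in PD-1 KO libraries. The lowest WT library, at 0 h, lay only just above the highest PD-1 KO library, also at 0 h. The log2 difference was -0.62 ± 0.05 (adjusted p = 6.42e-11), and it was -0.38 at 0 h, -0.69 at 2 h, -0.92 at 2 h with amyloid-beta, -0.57 at 8 h and -0.54 at 8 h with amyloid-beta. At 0 h the call was lost without PD-1 KO 0 h replicate 1 (-0.26), without WT 0 h replicate 1 (-0.30) and without WT 0 h replicate 3 (-0.39). Lgmn, legumain or asparagine endopeptidase, lay at 12328 to 19823 with a median of 15645 against 19240 to 31245 with a median of 22272 in WT (-0.53 ± 0.05, adjusted p = 1.01e-09). Tpp1, tripeptidyl peptidase 1, lay at 4228 to 5306 with a median of 4470 against 5070 to 7011 with a median of 5997 in WT (-0.41 ± 0.04, adjusted p = 4.8e-09). Ppt1, palmitoyl-protein thioesterase 1, which removes fatty acids from proteins, differed less (-0.16 ± 0.04, adjusted p = 0.00111) and passed at 2 h and 2 h with amyloid-beta only. The ranges of all 3 overlapped.

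**Figure D2:**
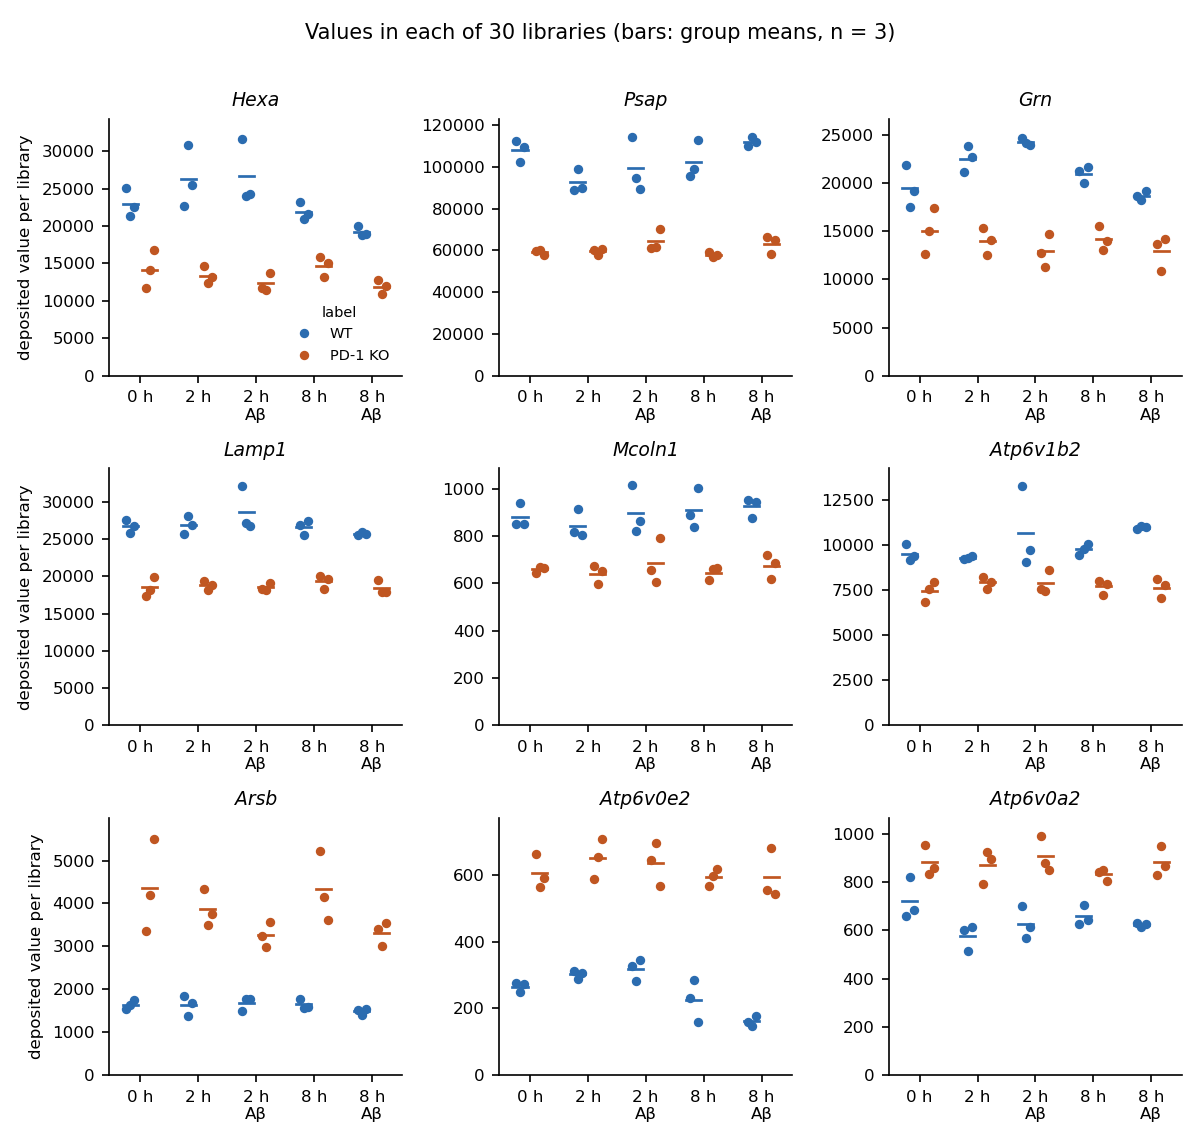
Deposited value of 9 genes in each of the 30 libraries, by time and amyloid-beta medium (Aβ), with 3 libraries per group (points) and the group mean (bars); the axes start at 0. Hexa, Psap, Grn, Lamp1, Mcoln1 and Atp6v1b2 are lower in every PD-1 KO library than in any WT library, Arsb and Atp6v0e2 are higher in every one, and Atp6v0a2 overlaps through 1 WT library at 0 h (820.2).

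Among the 8 membrane proteins and channels 6 were lower, and Laptm4a and Scarb2 did not pass. Lamp1, the major glycoprotein of the lysosomal membrane (chromosome 8, 13159161 to 13175338, GRCm38), ranged from 25489 to 32119 with a median of 26805 in WT and from 17358 to 20031 with a median of 18325 in PD-1 KO libraries. No values overlapped, and the narrow ranges gave a log2 difference of -0.52 ± 0.04 (adjusted p = 2.64e-12), -0.53 at 0 h, -0.52 at 2 h, -0.63 at 2 h with amyloid-beta, -0.46 at 8 h and -0.48 at 8 h with amyloid-beta. Under quantile normalization it was -0.19 over all conditions, and the calls at 2 h (-0.13), 2 h with amyloid-beta (-0.14) and 8 h (-0.11) were lost. Its partner Lamp2 differed by -0.31 ± 0.04, with overlap, and passed at 0 h, 2 h and 2 h with amyloid-beta (-0.04 over all conditions and 0.10 at 2 h under quantile normalization). Mcoln1, the lysosomal calcium and cation channel TRPML1, was low in RNA per kilobase (median 106) and was also lower without overlap, at 599.8 to 793 with a median of 660.1 against 805 to 1015 with a median of 878 in WT (-0.43 ± 0.04, adjusted p = 9.44e-10).

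Cd63 and Cd68, tetraspanin and scavenger-type glycoprotein of late endosomes and lysosomes in macrophages, were both lower. Cd63 did not overlap, at 6408 to 8315 with a median of 7289 against 9233 to 14969 with a median of 10382 in WT (-0.56 ± 0.06, adjusted p = 7.85e-09). Cd68 ranged from 24251 to 37304 with a median of 29134 in WT and from 14803 to 24522 with a median of 19183 in PD-1 KO libraries, and it overlapped because 1 PD-1 KO library at 0 h (24522) lay above the lowest WT library, at 8 h with amyloid-beta. Within each of the 5 conditions its groups did not overlap, and the log2 difference was -0.64 ± 0.05 (adjusted p = 2.28e-12). Laptm5, a lysosomal transmembrane protein of blood-lineage cells, differed by -0.35 ± 0.05 (-0.02 under quantile normalization, not passing, and 0.09 at 2 h with amyloid-beta, a reversed direction). Laptm4a differed by 0.03 ± 0.04 (adjusted p = 0.561). Scarb2, LIMP-2, the receptor that carries beta-glucocerebrosidase to the lysosome, differed by 0.09 ± 0.04 over all conditions (adjusted p = 0.0667) and was higher at 2 h (0.30) and at 2 h with amyloid-beta (0.33). The 2 h call of Scarb2 was lost without WT 2 h replicate 2 (0.28), PD-1 KO 2 h replicate 2 (0.27) or PD-1 KO 2 h replicate 3 (0.28).

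Tfeb, the transcription factor of the lysosomal programme (chromosome 17, 47737030 to 47792419, GRCm38), ranged from 352 to 615 with a median of 426 in WT and from 325 to 484 with a median of 399 in PD-1 KO libraries. The ranges overlapped in part, and the log2 difference was -0.19 ± 0.05 (adjusted p = 0.00116). In single conditions it passed at 2 h only (-0.41), where the WT libraries held 553, 615 and 536 and the PD-1 KO libraries 472, 413 and 399. Those 2 groups did not overlap.

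Of the 19 V-ATPase genes 16 were lower, 2 were higher and Atp6v1g2 did not pass, with a median of -0.35. The accessory proteins Atp6ap1 and Atp6ap2, the second also known as the prorenin receptor, were lower, with log2 differences of -0.20 ± 0.03 and -0.28 ± 0.03. Atp6ap1 had the smallest spread of all 56 genes, a median coefficient of variation of 2.91% within groups, and its ranges did not overlap (4313 to 5158 with a median of 4824 in PD-1 KO, 5198 to 6986 with a median of 5443 in WT). Its log2 difference was -0.04 under quantile normalization and then did not pass.

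In the V0 sector 6 subunits were lower and 2 were higher. Atp6v0d2, the d2 isoform found in osteoclasts and macrophages (chromosome 4, 19876841 to 19922605, GRCm38), ranged from 1518 to 2644 with a median of 2021 in WT and from 996 to 1470 with a median of 1183 in PD-1 KO libraries without overlap. Its log2 difference of -0.73 ± 0.06 (adjusted p = 4.68e-12) was the largest decrease among the V-ATPase genes, -0.69 at 0 h, -0.78 at 2 h, -0.50 at 2 h with amyloid-beta, -0.76 at 8 h and -0.93 at 8 h with amyloid-beta. The widely expressed subunits differed less, Atp6v0d1 by -0.41 ± 0.05, Atp6v0e by -0.41 ± 0.06, Atp6v0b, a proteolipid of the rotor ring, by -0.36 ± 0.06 and Atp6v0a1 by -0.35 ± 0.05. All 4 had overlapping ranges.

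The isoforms Atp6v0e2 and Atp6v0a2 went the other way. Atp6v0e2, a second form of the small e subunit (chromosome 6, 48537615 to 48541801, GRCm38), ranged from 542 to 706 with a median of 595 in libraries labelled PD-1 KO and from 147 to 345 with a median of 275 in WT libraries, far apart. Its log2 difference was 1.32 ± 0.06 (adjusted p = 2.75e-16), the largest among the 56 genes, and it was 1.19 at 0 h, 1.10 at 2 h, 0.998 at 2 h with amyloid-beta, 1.44 at 8 h and 1.87 at 8 h with amyloid-beta. Atp6v0a2, the a2 isoform, which acts in the Golgi and endosomes (chromosome 5, 124628576 to 124724455, GRCm38), lay at 791 to 992 with a median of 860.3 under the PD-1 KO label against 514 to 820.2 with a median of 627 in WT. Only 1 WT library, at 0 h, reached into the PD-1 KO range, and the gene was higher by 0.45 ± 0.04 (adjusted p = 4.58e-10) and passed in all 5 conditions. At 0 h its call was lost without WT 0 h replicate 1 (0.23), WT 0 h replicate 3 (0.26) or PD-1 KO 0 h replicate 1 (0.24). In a single library Atp6v0e2 stood at 0.315 to 0.516 of the value of Atp6v0e under the PD-1 KO label and at 0.0779 to 0.167 in WT. The ratio of Atp6v0a2 to Atp6v0a1 was 0.137 to 0.234 under the PD-1 KO label and 0.0884 to 0.125 in WT, again without overlap. The ratio of Atp6v0d2 to Atp6v0d1 overlapped, at 0.454 to 0.698 and 0.423 to 0.896.

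**Figure D3:**
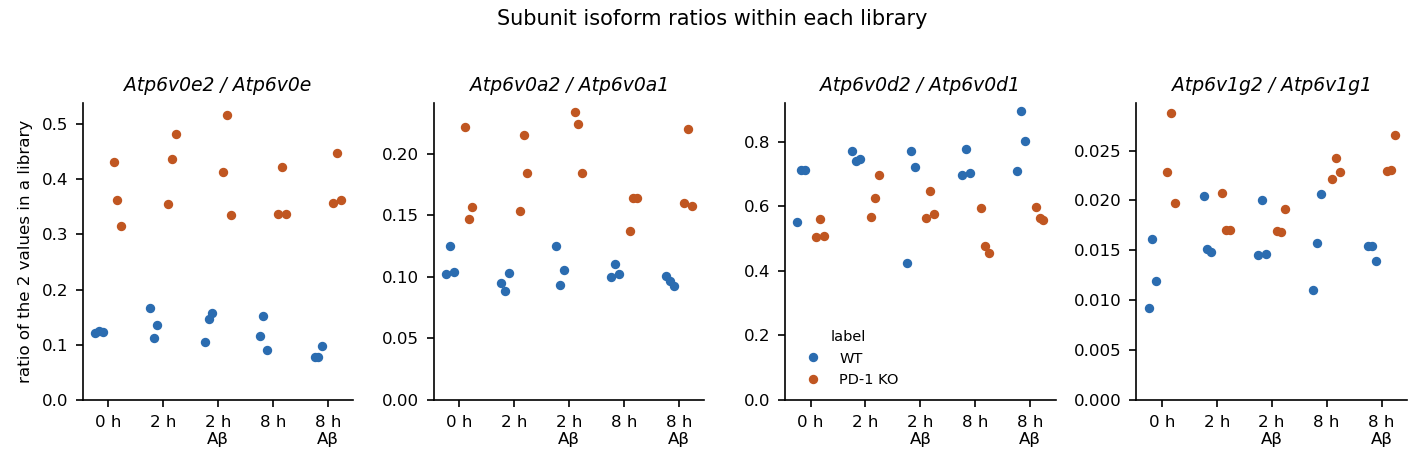
Ratio of the deposited values of 2 isoforms of a V-ATPase subunit within each of the 30 libraries, by time and amyloid-beta medium (Aβ), with libraries labelled WT in blue and PD-1 KO in orange; each axis starts at 0. The e2 to e and a2 to a1 ratios separate the labels in every condition, with medians of 0.363 against 0.122 and 0.164 against 0.103, while the d2 to d1 and g2 to g1 ratios overlap.

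Atp6v0c, the main proteolipid of the rotor ring, could not be separated from its pseudogene Atp6v0c-ps2 with certainty. The annotated pseudogene transcript matches Atp6v0c at 464 of 465 bases, and its row held 3803 to 7919 (median 6047) over the 30 libraries, beside 3766 to 7537 (median 5079) for Atp6v0c. Atp6v0c lay at 3766 to 5736 with a median of 4715 against 4587 to 7537 with a median of 5815 in WT, with overlap (-0.28 ± 0.06, adjusted p = 0.000117), and the pseudogene differed by -0.29 ± 0.06. Each passed in 2 conditions, Atp6v0c at 2 h and 8 h, the pseudogene at 2 h and at 2 h with amyloid-beta. Their sum, which does not depend on how reads were split between the copies, was lower by 0.22 to 0.40 on the log2 scale in the 5 conditions, and its values overlapped between the labels at 0 h only.

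In the V1 sector 8 of 9 subunits were lower. Atp6v1b2, the catalytic-sector B2 subunit of brain and macrophages, ranged from 9050 to 13274 with a median of 9749 in WT and from 6827 to 8640 with a median of 7784 in PD-1 KO libraries without overlap (-0.37 ± 0.04, adjusted p = 3.42e-08). It passed in 4 conditions, and its calls at 0 h and 8 h were lost without PD-1 KO 0 h replicate 1 (-0.30), WT 0 h replicate 1 (-0.32) and PD-1 KO 8 h replicate 2 (-0.30). Under quantile normalization its difference at 2 h with amyloid-beta was 0.01. Atp6v1g1, the common g isoform, lay at 2258 to 2854 with a median of 2422 against 3287 to 4472 with a median of 3589 in WT (-0.56 ± 0.04, adjusted p = 9.69e-12). Atp6v1c1, a stator subunit, lay at 2297 to 3134 with a median of 2582 against 3137 to 4606 with a median of 3776 in WT (-0.51 ± 0.03, adjusted p = 2.33e-13). Atp6v1a, the ATP-hydrolysing A subunit, lay at 7122 to 9752 with a median of 8396 against 9840 to 12969 with a median of 12053 in WT (-0.47 ± 0.04, adjusted p = 3.69e-10). None of these 3 overlapped, and all 3 passed in all 5 conditions. The 2 h call of Atp6v1a was lost without WT 2 h replicate 3 (-0.23) or PD-1 KO 2 h replicate 2 (-0.26), and under quantile normalization Atp6v1a stood at 0.05 at 2 h, a reversed direction. Atp6v1e1, Atp6v1f, Atp6v1d and Atp6v1h were lower, with log2 differences of -0.35 ± 0.05, -0.29 ± 0.06, -0.26 ± 0.04 and -0.22 ± 0.04, with overlapping ranges. Atp6v1g2, the neuronal g isoform, was the least abundant of the 56 genes, at 38.3 to 69.7 with a median of 53.3 in PD-1 KO against 36.7 to 75.2 with a median of 54.2 in WT. Its log2 difference was -0.06 ± 0.09 (adjusted p = 0.561).

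A complete separation of the labels was more frequent among these genes than over the table for decreases. In 15 of the 56 genes (26.8%) every library labelled PD-1 KO lay below every WT library, against a background of 1.36% of genes tested. They were Hexa, Gaa, Gla, Asah1, Psap, Grn, Lamp1, Cd63, Mcoln1, Atp6ap1, Atp6v0d2, Atp6v1a, Atp6v1b2, Atp6v1c1 and Atp6v1g1. In 2 genes (3.57%), Arsb and Atp6v0e2, every PD-1 KO library lay above every WT library, against a background of 7.64%. The median deviation of 55 genes (the pseudogene left out) from their own means over the 30 libraries lay between -0.30 and -0.02 on the log2 scale in each library labelled PD-1 KO and between 0.09 and 0.40 in each WT library. The library closest to the WT range was PD-1 KO 0 h replicate 3, in which 32 of the 55 genes were below their own mean.

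The decrease was present in each of the 5 conditions, in which separate libraries were compared. At 0 h 30 genes were lower and 3 higher, against backgrounds of 6.88% and 13.8%, with a median of -0.32. Without PD-1 KO 0 h replicate 1 the number of genes called at 0 h went from 33 to 21. At 2 h 41 were lower and 5 higher (backgrounds 13.4% and 18.8%, median -0.40), and at 2 h with amyloid-beta 43 and 5 (16.7% and 22.2%, median -0.48). At 8 h 26 were lower and 4 higher (9.01% and 18%, median -0.25), and at 8 h with amyloid-beta 39 and 5 (11.7% and 22%, median -0.38). The medians over all genes tested lay between -0.03 and 0.02 in these comparisons.

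Quantile normalization changed the count of lower and higher genes to 27 and 3 at 0 h, 31 and 6 at 2 h, 29 and 5 at 2 h with amyloid-beta, 20 and 6 at 8 h, and 27 and 6 at 8 h with amyloid-beta. Under that scaling 10.5%, 20.8%, 24.8%, 15.6% and 22.7% of all genes tested were lower in the same order, and 11.1%, 15.2%, 16.8%, 13.3% and 15.7% were higher. Over all genes called, the higher share went from 66.8% to 51.3%, 58.5% to 42.3%, 57.1% to 40.4%, 66.6% to 46% and 65.3% to 40.9% in the same order. The largest shift of the median of all genes, -0.13, was that at 2 h with amyloid-beta. Set against that median, the 56 genes stood at -0.17, -0.16, -0.11, -0.08 and -0.10 under quantile normalization and at -0.31, -0.41, -0.50, -0.24 and -0.35 on the authors' scale.

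Of the 56 genes 18 (32.1%) were lower in all 5 conditions, against a background of 2.29%. These were Hexa, Gaa, Naglu, Glb1, Galc, Gla, Aga, Asah1, Psap, Tpp1, Grn, Lamp1, Cd68, Mcoln1, Atp6v0d2, Atp6v1a, Atp6v1c1 and Atp6v1g1. Arsb, Atp6v0a2 and Atp6v0e2 (5.36%) were higher in all 5, against 9.15%. Without some library Naglu, Glb1, Galc, Aga, Grn, Atp6v1a and Atp6v0a2 no longer passed in all 5. Of the 201 calls in single conditions 55 were lost without some library and 48 under quantile normalization. The genes called in all 5 conditions under every alternative were 8: Hexa, Gaa, Gla, Atp6v0d2, Atp6v1c1 and Atp6v1g1 as lower, Arsb and Atp6v0e2 as higher.

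**Figure D4:**
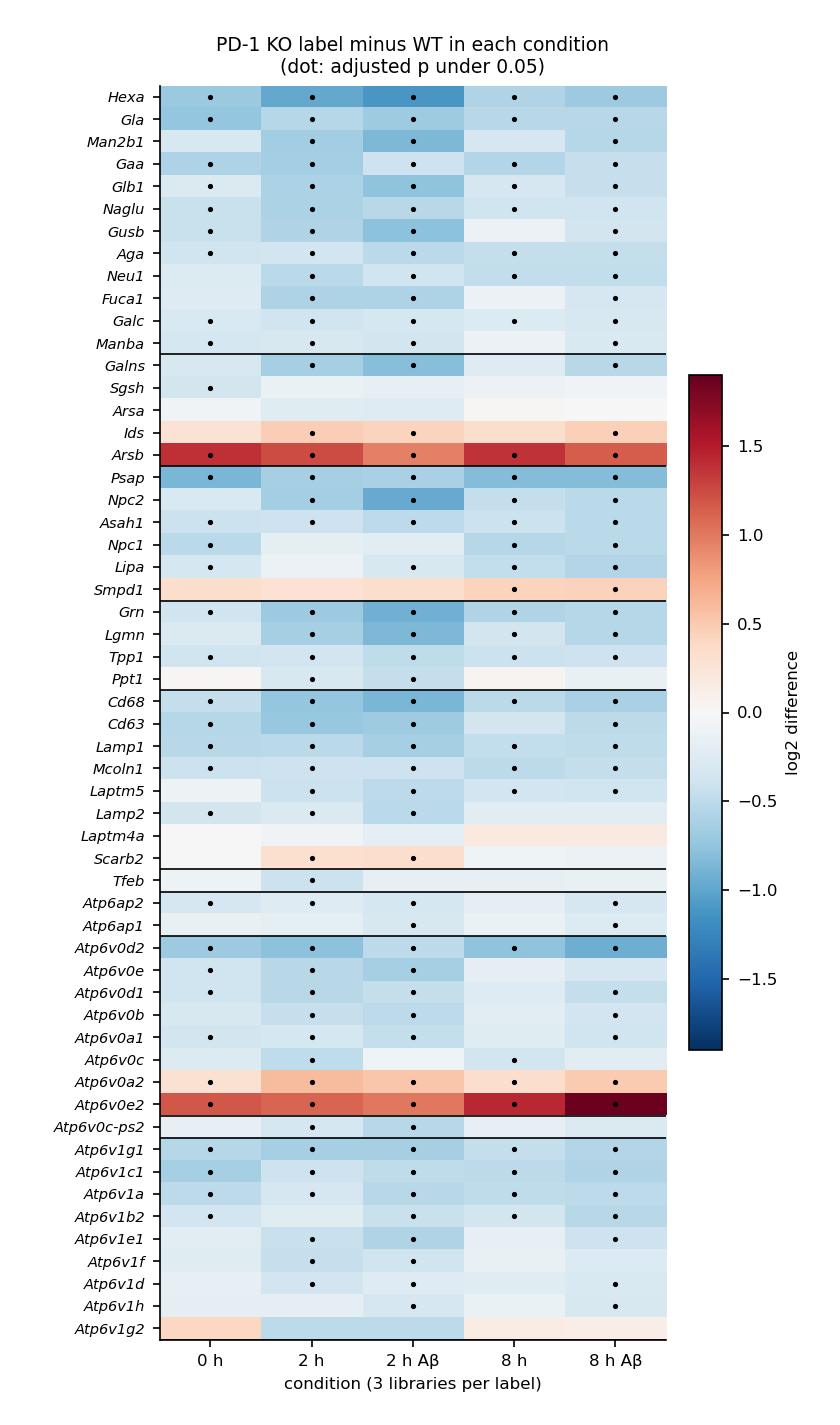
Log2 difference between libraries labelled PD-1 KO and WT in each of 5 conditions (columns, 3 against 3 libraries, Aβ for amyloid-beta medium) for the 56 genes in role order (rows, lines separate the roles); blue is lower and red is higher in PD-1 KO, and a dot marks an adjusted p under 0.05. Most cells are blue, and Arsb and Atp6v0e2 are red with a dot in all 5 columns.

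The summed value of the 14 microglia and macrophage markers was lower under the PD-1 KO label without overlap in 3 of the 5 conditions. It was 61804 to 78967 against 90440 to 114963 in WT at 2 h, 53885 to 65842 against 95483 to 122133 at 2 h with amyloid-beta, and 52192 to 59165 against 68503 to 70371 at 8 h with amyloid-beta. The sums overlapped at 0 h (61669 to 94898 against 58987 to 75297) and at 8 h (67245 to 86026 against 76991 to 87550). By gene 0 of the 14 markers were lower and 7 higher at 0 h in limma (median 0.41), 7 and 1 at 2 h (-0.37), 9 and 0 at 2 h with amyloid-beta (-0.64), 2 and 3 at 8 h (0.03), and 3 and 3 at 8 h with amyloid-beta (-0.23). In the 3 conditions with separated sums 41, 43 and 39 of the 56 genes were lower, and 30 at 0 h and 26 at 8 h. Of all genes tested 13.4%, 16.7% and 11.7% were lower there, and 6.88% and 9.01% at 0 h and 8 h. Under quantile normalization the counts were 31, 29 and 27, and 27 and 20. The shares of all genes were then 20.8%, 24.8% and 22.7%, and 10.5% and 15.6%. The 9 astrocyte markers were higher in all 5 conditions, with medians of 1.85 to 3.21. The summed astrocyte value within the PD-1 KO libraries ran from 11126 to 22054 at 0 h and from 14127 to 27019 at 2 h with amyloid-beta. The part of microglia number or of other cells in the lysosomal differences was not tested.

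Amyloid-beta medium moved none of the 56 genes past the threshold. In limma 0 of 56 were called in WT at 2 h, PD-1 KO at 2 h, WT at 8 h and PD-1 KO at 8 h, against backgrounds of 0%, 0%, 2.18% and 0.0583% of all genes, and voom, a model of the recovered reads, also called 0 of 56 in each. At an unadjusted p under 0.05 there were 1, 1, 6 and 13 genes (1.79%, 1.79%, 10.7% and 23.2%), beside 4.96%, 4.48%, 13.9% and 7.55% of all genes tested. Only the last of these shares was above that of all genes. The medians were 0.05, -0.02, 0.00 and -0.08, with single genes between -0.44 and 0.39.

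The smallest adjusted p in any of them was that of Atp6v0e2 in WT at 8 h. The untreated libraries held 230.3, 286 and 158 and those with amyloid-beta 160.2, 147 and 177, which overlapped, with a log2 difference of -0.44 ± 0.14 (SE, adjusted p = 0.109). In the same comparison 4 of 9 astrocyte markers were lower, with a median of -0.90, beside 281 of all 13722 genes tested. A relation between these markers and Atp6v0e2 was not tested. In PD-1 KO libraries at 8 h, 39 of 56 genes had a negative difference, as did 11 of the 13 with an unadjusted p under 0.05. The median over all genes tested was 0.02 there, and the share of all genes with a negative difference was not counted. Ppt1 (-0.33 ± 0.09, adjusted p = 0.188) and Glb1 (-0.33 ± 0.10, adjusted p = 0.249) came first, followed by Lgmn (-0.35), Cd68 (-0.30), Arsb (-0.37), Man2b1 (-0.31) and Hexa (-0.31), and none passed. The median of the 14 microglia markers in that comparison was -0.40, and a relation between them and these genes was not tested.

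Few of the 56 genes were called for time in culture, 2 at 2 h and 1 at 8 h in WT, shares of 3.57% and 1.79% that lay below the backgrounds of 4.75% and 6.05%, and each call was lost without some library. From 0 h to 2 h Tfeb was at 472, 416 and 352 and then at 553, 615 and 536, which did not overlap, a log2 rise of 0.47 ± 0.11 (SE, adjusted p = 0.00947). Npc1 was at 6022, 7571 and 8058 and then at 5723, 4903 and 5640, a fall by 0.40 ± 0.10 (adjusted p = 0.0148), again without overlap. Both calls were lost without WT 0 h replicate 3 (0.36 for Tfeb, -0.32 for Npc1) and without WT 2 h replicate 2 (0.41 and -0.33), and that of Npc1 also without WT 0 h replicate 2 (-0.36). In a fit with the compared groups alone neither passed (adjusted p = 0.179 and 0.231). Microglia markers were also higher at 2 h in WT, 8 of 14 with a median of 0.60, beside 356 of all 13722 genes tested. A relation between these markers and Tfeb or Npc1 was not tested.

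From 0 h to 8 h Gusb in WT went from 8539, 7712 and 7742 to 6309, 5871 and 5475, without overlap, a fall by 0.44 ± 0.13 (SE, adjusted p = 0.0456). It did not pass without any 1 of the 6 libraries compared (adjusted p between 0.0576 and 0.194), with TMM factors, without the intensity trend or with voom. The libraries at 8 h also carry a separate run of library numbers, 1784 to 1795 against 1707 to 1724 for 0 h and 2 h, so time and library series cannot be told apart for 8 h. In libraries labelled PD-1 KO limma and voom called 0 of 56 genes from 0 h to 2 h (background 0.634%) and 0 of 56 from 0 h to 8 h (3.29%), with 1 and 3 genes at an unadjusted p under 0.05. Those shares, 1.79% and 5.36%, lay below the 8.71% and 15.1% of all genes. Atp6v0c was the gene nearest the threshold at 2 h (-0.44, adjusted p = 0.134), and Laptm4a at 8 h (0.28, adjusted p = 0.0839).

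**Figure D5:**
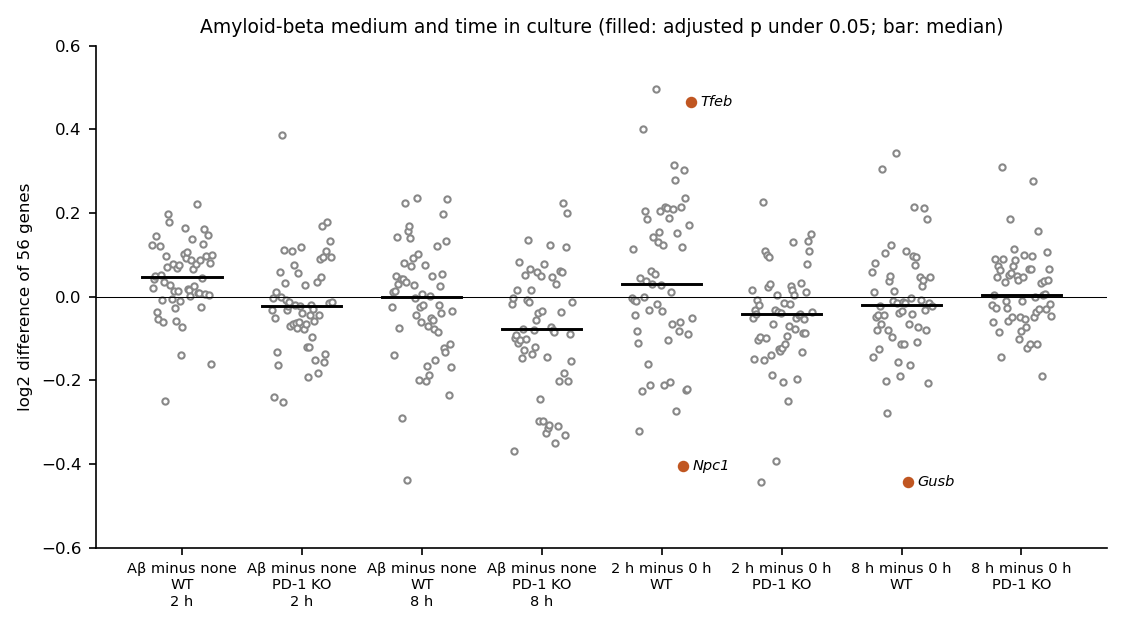
Log2 difference of each of the 56 genes (points) for amyloid-beta medium (Aβ) against none in 4 settings and for 2 h and 8 h against 0 h in each genotype label, with 3 against 3 libraries per comparison; bars are medians over the 56 genes and filled points passed an adjusted p of 0.05. Tfeb (0.47), Npc1 (-0.40) and Gusb (-0.44) are the filled points, all in WT, and the medians lie between -0.08 and 0.05.

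A difference between the labels in these responses was tested directly, and none of the 56 genes passed. In limma and in voom 0 of 56 passed for the amyloid-beta effect at 2 h (background 0.051%) and at 8 h (0%), and for the change from 0 h to 2 h (0.736%) and to 8 h (0.27%), with 2, 1, 11 and 0 genes at an unadjusted p under 0.05 (3.57%, 1.79%, 19.6% and 0%, beside 4.83%, 5.9%, 13.2% and 10.4% of all genes). Atp6v1g2 had the smallest adjusted p, 0.141, for the change from 0 h to 2 h. Its libraries held 36.7, 53.3 and 43 at 0 h and 67.7, 67.6 and 52.7 at 2 h in WT, and 53.3, 69.7 and 52.6 and 51.4, 40.3 and 40.9 under the PD-1 KO label. For Tfeb the rise in WT and its absence among the calls in PD-1 KO libraries were therefore not shown to differ. Among the 14 microglia markers, 5 passed for the change from 0 h to 2 h, all with a lower response under the PD-1 KO label.

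The variation of the 56 genes between groups of 1 label was measured but not compared with that of all genes. The ratio of the highest to the lowest of the 5 group means had a median of 1.21 in WT and 1.16 under the PD-1 KO label. Atp6v0e2 had the highest ratio in WT, 1.97, from 318 ± 32 (SD, n = 3) at 2 h with amyloid-beta to 161 ± 15 at 8 h with amyloid-beta, and a ratio of 1.10 under the PD-1 KO label. Scarb2 and Npc1 followed in WT with 1.56 each, both highest at 8 h with amyloid-beta and lowest at 2 h. The coefficient of variation within groups had a median of 7.01% over the genes, between 2.91% (Atp6ap1) and 13.6% (Ids).

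The rest of the lysosomal machinery was taken from lists that hold none of the 56 genes and were chosen with earlier results known. It was lower in the same direction for most lists over all conditions. Of 30 other hydrolases and cofactors 20 were lower and 2 higher (median -0.23). The 2 higher genes were Smpdl3b (1.04 ± 0.11) and Epdr1 (0.99 ± 0.10). Of 26 other membrane proteins and transporters 22 were lower and 1 was higher (median -0.31), led by Litaf (-0.70 ± 0.04). Tcirg1, the a3 isoform of the V0 a subunit, whose symbol the name rule does not match, was lower (-0.53 ± 0.04), and so was the peptide transporter Slc15a3 (-0.50 ± 0.05). Of 12 cathepsins 7 were lower and 4 higher (median -0.32), with Ctse at 4.91 ± 0.13, Ctsk at 1.32 ± 0.23 and Ctss at -0.72 ± 0.05.

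All 23 genes of mannose 6-phosphate tagging and lysosomal sorting were lower (median -0.27), among them Plekhm1, an adaptor of lysosome fusion (-0.67 ± 0.04), Plekhm2 (-0.44 ± 0.05) and Vps18 (-0.37 ± 0.04). Of 20 MiT/TFE factors and nutrient sensors 13 were lower and 0 higher in limma (median -0.24), with Fnip2 (-0.67 ± 0.06), the GTPase Rragc (-0.46 ± 0.03) and Lamtor5 (-0.45 ± 0.06) first. V-ATPase assembly factors were nearer to the median of all genes, 5 of 10 lower and Rogdi higher (median -0.15). Of 20 autophagy genes 11 were lower and 2 higher (median -0.20), led by Gabarapl1 (-0.46 ± 0.04). The median over all genes tested was -0.02, and backgrounds were 29.1% lower and 30.3% higher.

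The 56 genes lie on 18 chromosomes. The largest numbers were on chromosome 8, with 8 genes, and on chromosomes 4 and 11, with 6 each. All 20 of these were lower, as were 47 of the 56 genes (83.9%) on any chromosome. The share of all genes called lower on each chromosome was not counted. The 5 higher genes lie on chromosomes 6 (Atp6v0e2), 13 (Arsb), 5 (Atp6v0a2), X (Ids) and 7 (Smpd1).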

How the data were processed

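RNA of 30 libraries was sequenced, 3 in each of 10 groups. Per the submitters' processing notes, HISAT 0.1.5, Partek 6.6, R 3.0.2 and DESeq2 were used with the mm10 genome, and their roles are not given in the sources used here. The deposited values are a signal, namely gene counts divided by a size factor of each library and floored at 1. From the steps between low values the reads of each library were recovered, and 100% of the values up to 5000 reads were whole within 0.05. Of all values 4485 (1.08%) lay at the floor. Depth was 4227019 to 48509985 reads.

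Differences were tested with limma 3.58.1 in R 4.3.3, with an intensity trend, on log2(value + 1), which understates changes of low genes. The fit had 1 mean per group (20 residual degrees of freedom) and took in the 13722 of 13788 genes that reached 10 in at least 3 libraries. All 56 members passed that filter. P-values were adjusted by Benjamini-Hochberg within each of 18 comparisons over all genes, with a threshold of 0.05. A count test on recovered reads had been planned as an alternative. It was not run, since the deposited values are scaled and floored, and voom on those reads, chosen after seeing the data, took its place. The procedure was tested on simulated data. Other pseudocounts, filters, scalings, variance models, samples in the fit and the omission of each library were tried.

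The members and the pathway and marker lists were chosen with earlier results of these data known. All members may be named, full values go to those with the largest differences per role and to 11 fixed members, and up to 3 genes are named per pathway list, besides Tcirg1. For 1 gene of these lists the value is not reported here. Promoters come from RefSeq (GRCm38.p6). Figures were drawn with matplotlib 3.10.9.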

Additional observations from a re-analysis of the deposited data

How the results depend on the processing

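Over all conditions the number of the 56 genes called was 52 to 53 without each library in turn. By condition it was 21 to 37 at 0 h (33 with all libraries), 35 to 46 at 2 h, 44 to 50 at 2 h with amyloid-beta, 22 to 32 at 8 h and 32 to 43 at 8 h with amyloid-beta. It was 0 to 5 for WT at 2 h against 0 h, 0 to 1 for WT at 8 h against 0 h and for amyloid-beta in WT at 8 h, and 0 to 0 for the other comparisons. Quantile normalization called 5 genes for WT at 2 h against 0 h and 2 for PD-1 KO at 8 h against 0 h, beside 4.59% and 4.65% of all genes. WT at 8 h against 0 h had 0 calls with TMM factors, without the intensity trend and with voom, and WT at 2 h against 0 h had 0 in a fit of the compared groups alone. Quantile normalization reversed Lamp2 (0.0954) and Atp6v1a (0.0467) at 2 h, and Lipa (0.20), Laptm5 (0.0895) and Atp6v1b2 (0.0108) at 2 h with amyloid-beta. The cause was not tested. A fit of the compared groups alone called 22 genes at 0 h. The planned edgeR count test was not run. No paired analysis was possible because the labels give the libraries no replicate numbers shared between groups. The differences at 8 h against 0 h cannot be told apart from the library series, and the labels do not say whether libraries of a group came from separate animals.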
